A study of Mus musculus with 21 samples.

Results

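The genes described here code for channels, receptors and a transporter on which ethanol is known to act directly, and they were chosen by name. They were the BK channel genes Kcnma1, Kcnmb2 and Kcnmb4, the GIRK channel genes Kcnj3, Kcnj6 and Kcnj9, the glycine receptor genes Glra2, Glra3 and Glrb, and the nucleoside transporter gene Slc29a1. These 10 symbols were each found once among the 24498 genes of the count table, and all 10 passed the filter on low counts, which left 14578 genes. The rule uses their names, not their levels, but the genes were chosen with earlier results of these data known. The genes lie on 9 chromosomes.

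BK channels pass potassium when the cell is depolarised and intracellular calcium rises, and they shorten action potentials and limit transmitter release. GIRK channels are opened by the beta-gamma subunits of G proteins released from receptors such as the GABA-B and adenosine receptors, and they hold hippocampal neurons near their resting potential. Glycine receptors are chloride channels, and in the hippocampus many of them lie outside synapses. The transporter encoded by Slc29a1 carries adenosine across the plasma membrane, and ethanol blocks it, which raises extracellular adenosine.

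The libraries were made from hippocampal RNA of male mice of 8 weeks, which had received 2 g of ethanol per kg, injected into the peritoneum as a 20% solution in saline. The knockdown arm carried AAV2/9; U6.shACSS2.CMV.EGFP, a virus in which the U6 promoter drives a short hairpin RNA against Acss2, the enzyme that turns acetate into acetyl-CoA, and the CMV promoter drives a green fluorescent protein. The sample protocol places the injection in the dorsal hippocampus, whereas the design text allows a systemic route, and no virus is described for the control arm. The labels say neither whether libraries of a group came from separate animals nor how long after ethanol tissue was taken, so the p-values reflect the spread between libraries, which may be technical. After ethanol the groups with over 1000000 gene reads per library were dorsal knockdown (n = 4), dorsal control (n = 3), ventral knockdown (n = 3) and ventral control (n = 4). A knockdown library of total hippocampus gave levels only. All groups had received ethanol, so none of the comparisons shows an effect of ethanol itself.

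The 15 libraries held 2819837 to 13240179 gene reads, and 57.4% to 81.0% of their uniquely aligned reads fell in genes. A further 2 ethanol libraries and the 4 untreated libraries held 4279 to 221847 gene reads and were left out of the levels and tests. The targeted gene Acss2 stood at 44.1, 40.8, 17.9 and 19.2 CPM (counts per 1000000 gene reads, scaled by TMM) in dorsal knockdown libraries, against 52.7, 58.6 and 53.0 CPM in dorsal control libraries. Its ventral levels were 28.8, 63.8 and 36.5 CPM in knockdown libraries, against 50.1, 53.9, 47.5 and 47.9 CPM in control libraries, so the library labelled ventral knockdown 3, with 63.8 CPM, lay above every control library. For Acss2 the log2 fold change was -0.84 (SE 0.32, unadjusted p = 0.0199, adjusted p = 0.964 by edgeR) in dorsal and -0.21 (SE 0.32, adjusted p = 1.00 by edgeR) in ventral tissue, so the knockdown did not pass the test in these libraries. Summed markers of CA1 pyramidal neurons, neocortex and microglia separated some of the groups without overlap and are given beside the results they touch. Choroid plexus sums separated dorsal knockdown (101 to 298 CPM) from ventral knockdown (68.1 to 77.5 CPM). Hypothalamus sums separated dorsal control (2.39 to 3.71 CPM) from ventral control (3.93 to 13.5 CPM). Dentate granule sums overlapped, but 7 of 7 markers were lower in dorsal than in ventral controls, and 7 of 7 in ventral knockdown than in ventral control. Markers of neighbouring tissue stood highest in ventral control 4, with 15687 CPM summed over 10 choroid plexus markers against 47.8 to 642 CPM in the 13 other tested libraries, and dorsal knockdown 3, with 152 CPM summed over 10 hypothalamus markers.

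Promoter sequences are shown for Kcnma1, Kcnmb4 and Kcnj9, because their levels in dorsal control libraries all lay above those in ventral control libraries. Each line gives the 250 bases before the transcription start in the RefSeq promoter table (build GRCm38.p6), on the minus strand, 5′ to 3′, at chr14:24004206-24004455, chr10:116473524-116473773 and chr1:172329323-172329572. Capitals mark GGGCGG (the GC box) and TATAAA (the TATA box) on either strand.
Kcnma1 promoter: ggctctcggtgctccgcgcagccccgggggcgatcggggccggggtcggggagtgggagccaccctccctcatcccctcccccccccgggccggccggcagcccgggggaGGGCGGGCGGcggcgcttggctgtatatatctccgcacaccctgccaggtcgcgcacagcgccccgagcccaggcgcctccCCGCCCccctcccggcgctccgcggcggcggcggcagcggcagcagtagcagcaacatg
Kcnmb4 promoter: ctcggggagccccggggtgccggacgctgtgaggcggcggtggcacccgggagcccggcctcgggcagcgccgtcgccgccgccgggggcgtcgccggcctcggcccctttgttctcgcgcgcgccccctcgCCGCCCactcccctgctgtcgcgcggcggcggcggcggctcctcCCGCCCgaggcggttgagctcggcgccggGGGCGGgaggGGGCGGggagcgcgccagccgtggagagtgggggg
Kcnj9 promoter: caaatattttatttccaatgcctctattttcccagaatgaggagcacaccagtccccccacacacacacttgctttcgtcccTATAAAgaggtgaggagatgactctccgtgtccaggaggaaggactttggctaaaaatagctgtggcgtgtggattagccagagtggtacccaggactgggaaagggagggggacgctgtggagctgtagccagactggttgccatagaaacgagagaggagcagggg
The window of Kcnma1 held 3 GC boxes, of which 2 overlapped, that of Kcnmb4 held 4, and that of Kcnj9 held a TATA box. The Kcnma1 start lay 10286 bases and the Kcnmb4 start 355 bases inside the gene as annotated by GENCODE. Both of these printed windows thus lay wholly within the annotated genes, not upstream of them. The Kcnj9 start lay 4 bases from the annotated 5′ end. In windows from 250 bases before to 50 bases after the start, searched on both strands, the GC box stood in 7 of the 10 genes and in 35.7% of 32851 mouse promoters. The TATA box stood in 2 of the 10 (Kcnj9 and Glra2) and in 13.6% of all promoters. The cyclic AMP response element TGACGTCA and the E-box CACGTG stood in 0 of the 10, and in 1.79% and 7.15% of all promoters. The 10 windows had a median GC content of 59.9% and 13 CpG dinucleotides, against 52.7% and 7 over all promoters.

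Per kilobase of merged exons, the glycine receptor beta subunit gene Glrb and the GIRK genes Kcnj3 and Kcnj9 were the most abundant of the 10. Mean levels over the 15 libraries were 33.4 RPKM for Glrb, 25.3 RPKM for Kcnj3, 22.2 RPKM for Kcnj9 and 13.5 RPKM for Kcnmb4. Kcnma1 followed with 7.76 RPKM, Kcnj6 with 7.01 RPKM, Slc29a1 with 4.28 RPKM, Glra2 with 2.89 RPKM, Kcnmb2 with 1.34 RPKM and Glra3 with 0.216 RPKM. Among 14159 tested genes with a length, Glrb stood at percentile 91.2, Kcnma1 at percentile 61.4 and Glra3 at percentile 1.82. Neighbours in the upper part of this order often changed places. Glrb lay above Kcnj3 in 11 of 15 libraries, Kcnj3 above Kcnj9 in 10, Kcnj9 above Kcnmb4 in 11 and Kcnma1 above Kcnj6 in 11. Kcnmb4 lay above Kcnma1 in 14 of 15 libraries, and Glra3 was the lowest of the 10 in every one. The order depended on the length used: per kilobase of the longest transcript Kcnmb4 moved to the second place with 27.6 RPKM, next to Kcnj3 with 25.3 RPKM.

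**Figure D1:**
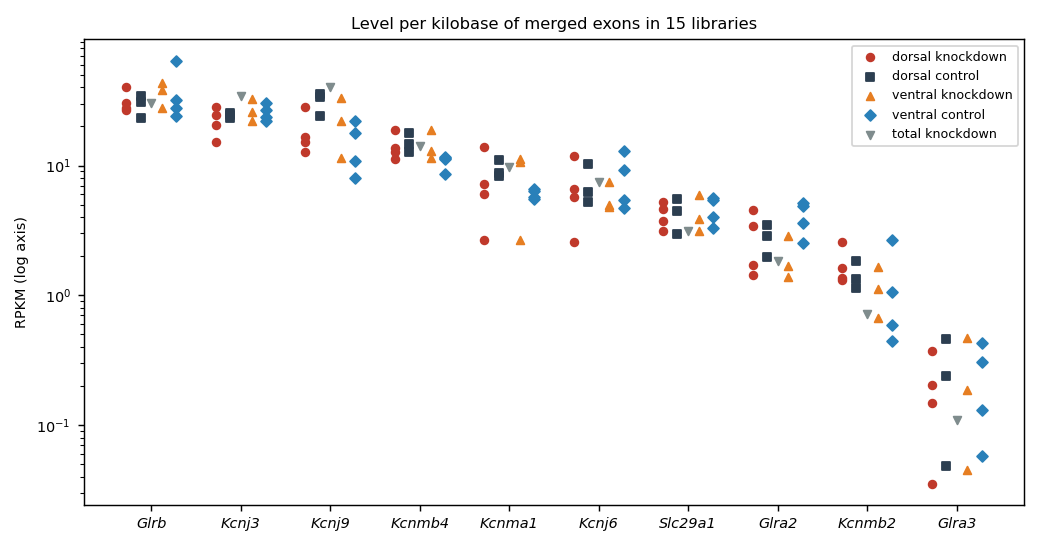
Level of each gene in RPKM (log axis, reads per kilobase of merged exons and per 1000000 gene reads) in the 15 libraries, with points coloured by group and genes in order of their mean. Glrb, Kcnj3 and Kcnj9 overlap at the upper end, and Glra3 lies below every other gene in each library.

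Libraries of a group differed most for the rarest gene. The mean within-group coefficient of variation was 80.5% for Glra3, which had 1 to 60 reads per library, 46.7% for Kcnmb2 with 8 to 83 reads, 41.8% for Kcnj6, 37.6% for Kcnj9, 37.3% for Glra2 and 36.4% for Kcnma1. It was 27.7% for Glrb, 27.3% for Slc29a1, 20.2% for Kcnmb4 and 16.1% for Kcnj3, against a median of 27.0% over all tested genes. Kcnj6, Kcnj9 and Kcnma1 thus varied more between libraries of a group than most genes, although each had at least 162 reads in every library.

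Kcnma1 codes for the pore-forming alpha subunit of the BK channel (chr14:23289431-24014491, minus strand, mm10). It stood at 236, 45.4, 103 and 122 CPM in dorsal knockdown libraries, against 189, 141 and 149.9 CPM in dorsal control libraries. The ventral libraries held 190.0, 45.0 and 181 CPM in knockdown libraries, against 97.8, 108, 111 and 94.0 CPM in control libraries. The control libraries of each region were close together, whereas both knockdown groups spanned the whole range of the controls and beyond. The log2 fold change of knockdown over control was -0.34 (SE 0.47) in dorsal and 0.43 (SE 0.47) in ventral tissue, and the difference of these effects was -0.77 (SE 0.67, adjusted p = 0.998 by edgeR). None of these passed the test. With single libraries left out, the dorsal value ran from -0.83 (without dorsal knockdown 1) to -0.047 (without dorsal knockdown 2), the ventral value from 0.14 (without ventral knockdown 2) to 0.86 (without ventral knockdown 3), and the difference from -1.27 to -0.47. In bulk tissue a level cannot tell the number of cells of a type from the RNA per cell.

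The lowest Kcnma1 levels came from dorsal knockdown 2 and the library labelled ventral knockdown 3, which also had the smallest shares of uniquely aligned reads in no gene, 23.1% and 18.3%, against 24.7% to 42.3% in the other 13 libraries. Their share of the nuclear RNA Malat1, 0.153% and 0.147% of gene reads, was the lowest as well. Without both libraries, an alternative chosen after seeing the data, the log2 fold change of Kcnma1 in ventral tissue was 0.86 (SE 0.28, adjusted p = 0.382 by edgeR) and in dorsal tissue -0.047 (SE 0.27). The library next in share, dorsal control 3 with 24.7% of reads in no gene and 0.183% Malat1, held 149.9 CPM of Kcnma1. The part of the no-gene share in the Kcnma1 levels was not tested. Kcnj6 was also lowest in dorsal knockdown 2 (19.5 CPM), but in ventral knockdown 3 it stood at 37.6 CPM, next to 36.7 CPM in ventral knockdown 4.

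**Figure D2:**
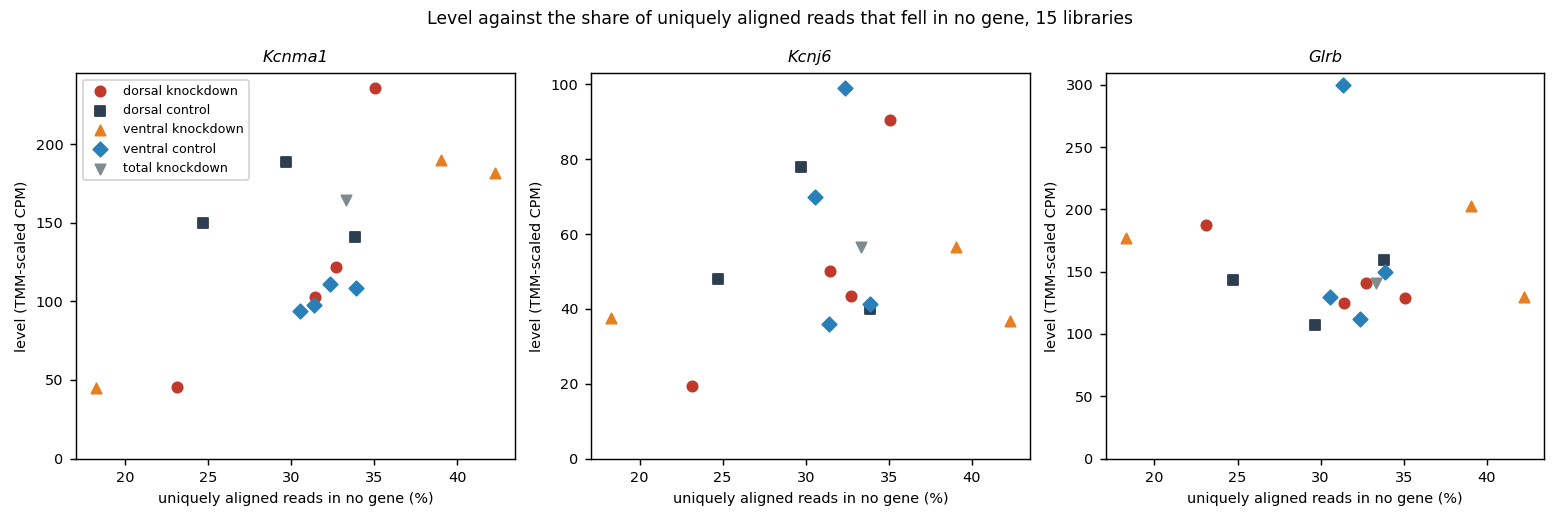
TMM-scaled CPM of Kcnma1, Kcnj6 and Glrb against the percentage of uniquely aligned reads in no gene, 1 point per library in 15 libraries, coloured by group. The 2 libraries farthest to the left, ventral knockdown 3 and dorsal knockdown 2, have the lowest Kcnma1 levels, 45.0 and 45.4 CPM, and 177 and 187 CPM of Glrb. The next point, dorsal control 3 at 24.7%, has 149.9 CPM of Kcnma1 and 144 CPM of Glrb.

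In the control arm Kcnma1 was higher in dorsal than in ventral libraries without overlap, 160 ± 25.4 CPM (SD, n = 3) in dorsal and 103 ± 8.31 CPM (SD, n = 4) in ventral controls. This log2 fold change of 0.63 (SE 0.47, adjusted p = 0.737 by edgeR) did not pass the test. In that fit the 4 groups share an estimate of the spread, to which the wide knockdown groups contribute, and with only the control groups it was 0.63 (SE 0.18) with an unadjusted p = 0.00641 and an adjusted p = 0.683 by edgeR. In the knockdown arm the regions overlapped (log2 fold change -0.14, SE 0.48).

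Kcnmb4 codes for the beta subunit most typical of neurons, which slows BK gating and makes the channel less sensitive to ethanol (chr10:116417861-116473878, minus strand). It stood at 42.6, 45.7, 37.0 and 62.8 CPM in dorsal knockdown libraries, against 59.3, 48.6 and 42.6 CPM in dorsal control libraries. The ventral levels of Kcnmb4 were 38.1, 62.7 and 43.2 CPM in knockdown libraries, against 38.2, 37.2, 38.9 and 28.7 CPM in control libraries. Every dorsal control library lay above every ventral control library, and every other pair of groups overlapped. For Kcnmb4 the log2 fold change was 0.48 (SE 0.23, adjusted p = 0.731 by edgeR) for dorsal over ventral controls, 0.42 (SE 0.23) for ventral knockdown over ventral control and -0.085 (SE 0.23) for dorsal knockdown over dorsal control. The opposite-strand genes Kcnmb4os1 and Kcnmb4os2 cover 10.7% and 20.8% of the Kcnmb4 exons, and Kcnmb4os2 had a mean of 2.02 to 3.38 CPM in the 4 groups. The kit marks strand, but no source used here gives the strand setting of the counting, so reads of such pairs may not have been separated.

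Kcnmb2 codes for the beta subunit that makes BK currents inactivate (chr3:31902507-32200180, plus strand), and its levels were low and scattered. They ran from 4.13 to 8.05 CPM in dorsal knockdown libraries and from 3.54 to 5.70 CPM in dorsal control libraries. In ventral tissue they ran from 2.08 to 5.17 CPM in knockdown libraries and from 1.39 to 8.30 CPM in control libraries. All groups overlapped, and the log2 fold changes of the 4 pairwise comparisons lay between -0.023 and 0.59 with SE of 0.53 to 0.54.

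Among the GIRK genes, Kcnj9 codes for the subunit GIRK3, which carries a sorting signal and can draw channels into endosomes (chr1:172320501-172329318, minus strand). It stood at 54.9, 71.6, 65.5 and 121 CPM in dorsal knockdown libraries, against 103, 153 and 146 CPM in dorsal control libraries. The ventral levels of Kcnj9 were 95.1, 49.1 and 143 CPM in knockdown libraries, against 46.5, 76.3, 94.8 and 34.1 CPM in control libraries. The means ran in opposite directions: 78.2 ± 29.2 CPM in dorsal knockdown and 134 ± 26.8 CPM in dorsal control, but 95.7 ± 46.8 CPM in ventral knockdown and 63.0 ± 27.7 CPM in ventral control (SD, n = 4, 3, 3 and 4). In dorsal tissue, 3 of the 4 knockdown libraries lay below every control. Total-hippocampus knockdown tissue held 174 CPM, above each of the other 14 libraries.

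For Kcnj9 the log2 fold change was 1.09 (SE 0.39, unadjusted p = 0.0144, adjusted p = 0.731 by edgeR) between dorsal and ventral controls, and the 3 dorsal libraries all lay above the 4 ventral ones. In the fit of all 4 groups this was the smallest p of the 10 genes in any comparison, and it ranked 186 of 14578 genes. With only the control groups Kcnma1 had the smaller p, 0.00641 against 0.0109 for Kcnj9 (unadjusted, edgeR). Knockdown over control was -0.78 (SE 0.39) in dorsal and 0.60 (SE 0.39) in ventral tissue, and the difference of these effects was -1.38 (SE 0.55, unadjusted p = 0.0253, adjusted p = 0.998 by edgeR). None passed the test after adjustment. With single libraries left out, the ventral knockdown value ran from 0.20 (without ventral knockdown 4) to 0.92 (without ventral knockdown 3), the dorsal one from -1.07 to -0.64, the value between control regions ran from 0.88 to 1.36 and the difference of the effects from -1.70 to -0.97. The comparisons share libraries, so these values are not independent: the 3 dorsal controls enter the first, the second and the last. Without TMM scaling the dorsal and ventral controls overlapped, because dorsal control 1 then stood at 82.6 CPM, below ventral controls 2 and 3 with 85.6 and 90.7 CPM.

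Kcnj3 codes for GIRK1, the subunit that reaches the membrane together with other GIRK subunits and raises their current (chr2:55435970-55598145, plus strand), and it was the steadiest of the 10 genes. It ranged from 79.1 to 148 CPM in dorsal knockdown libraries and from 122 to 134 CPM in dorsal control libraries. Ventral libraries ranged from 116 to 170.4 CPM in knockdown libraries and from 114 to 158 CPM in control libraries. Its log2 fold changes were -0.15 (SE 0.22) for knockdown over control in dorsal tissue and 0.060 (SE 0.22) in ventral tissue, with a 95% interval of -0.41 to 0.54 for the second. Differences within that interval could not be told from none. GENCODE places the opposite-strand RNA Gm26794 over 31.1% of the Kcnj3 exons.

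Kcnj6 codes for GIRK2, the subunit that can form channels on its own (chr16:94748636-94997701, minus strand). It ranged from 19.5 to 90.5 CPM in dorsal knockdown libraries and from 40.0 to 77.9 CPM in dorsal control libraries. In ventral tissue it ranged from 36.7 to 56.5 CPM in knockdown libraries and from 35.9 to 99.0 CPM in control libraries. The high values were scattered over groups, with 99.0 CPM in ventral control 3, 90.5 CPM in dorsal knockdown 1 and 77.9 CPM in dorsal control 1. Its log2 fold changes were -0.11 (SE 0.45) for knockdown over control in dorsal and -0.50 (SE 0.45) in ventral tissue.

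**Figure D3:**
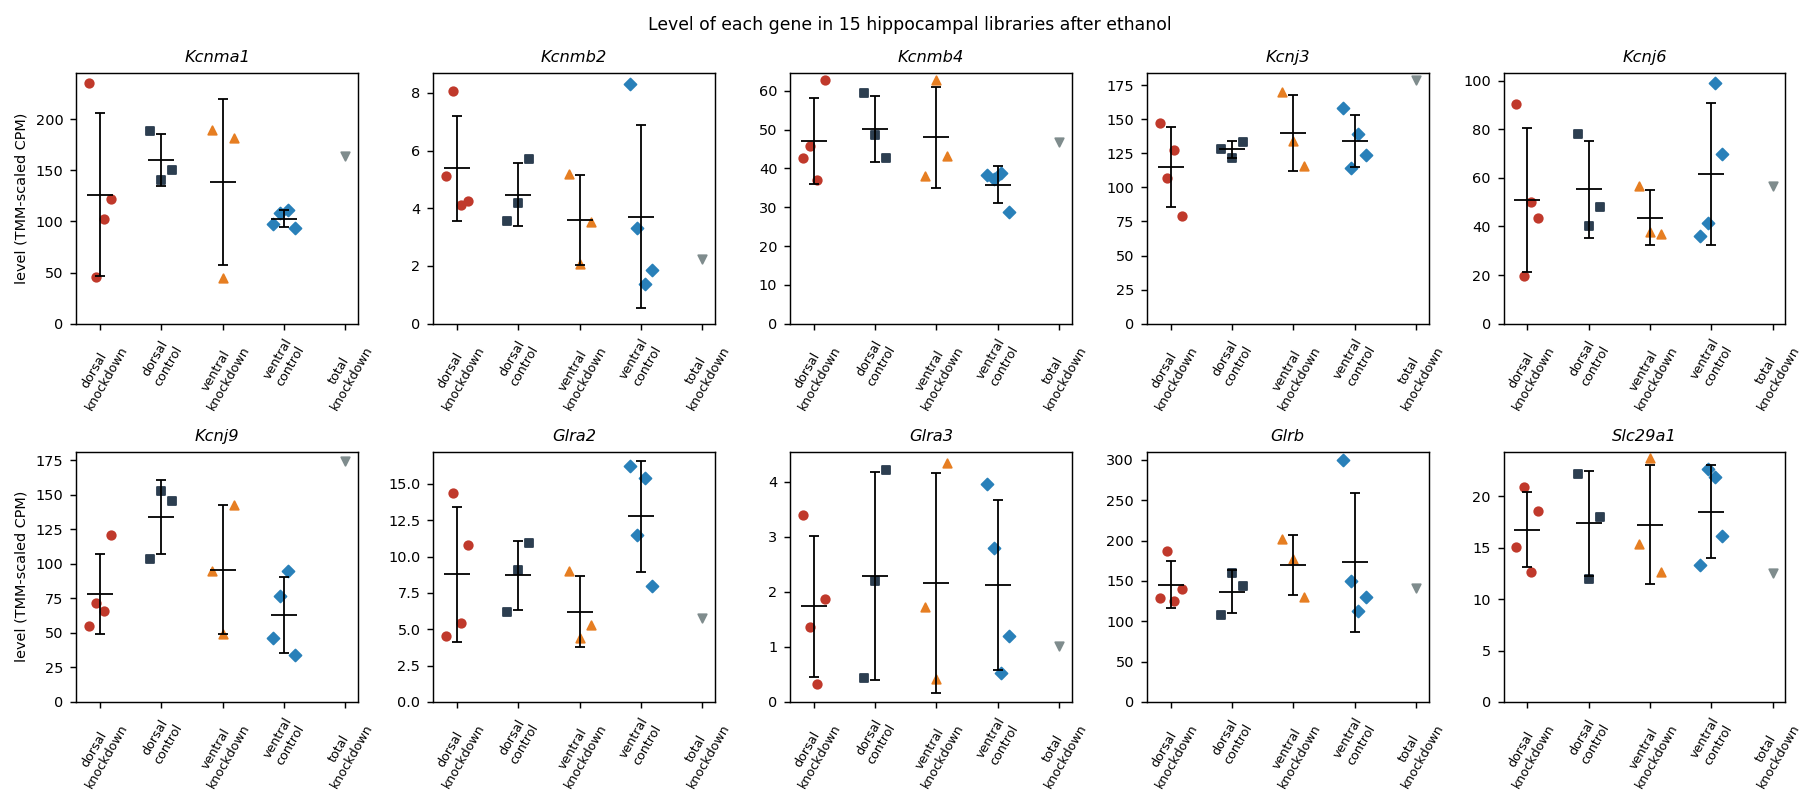
TMM-scaled CPM of each of the 10 genes in the 15 libraries by group, where points are libraries and bars are the mean ± SD of the 4 tested groups, and the total-hippocampus knockdown library is a single point. Kcnma1, Kcnmb4 and Kcnj9 lie higher in every dorsal control than in every ventral control library, while the knockdown groups overlap their controls for every gene.

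The glycine receptor gene Glra2 codes for an alpha subunit that is prominent in the developing brain and stays present in the adult hippocampus (chrX:165129017-165327393, minus strand). It stood at 4.54, 14.4, 5.43 and 10.8 CPM in dorsal knockdown libraries, against 6.2, 9.04 and 10.9 CPM in dorsal control libraries. In ventral tissue it stood at 8.99, 4.37 and 5.27 CPM in knockdown libraries, against 16.2, 11.5, 15.4 and 7.98 CPM in control libraries. The ventral groups overlapped through ventral knockdown 2 and ventral control 4. The log2 fold change of ventral knockdown over ventral control was -1.04 (SE 0.42, unadjusted p = 0.0261, adjusted p = 1.00 by edgeR), with a 95% interval of -1.94 to -0.14 before any adjustment. In dorsal tissue it was -0.014 (SE 0.41), and the difference of the effects, 1.03 (SE 0.59, adjusted p = 0.998 by edgeR), did not pass the test. With single libraries left out, the ventral value ran from -1.40 to -0.83 and the difference from 0.68 (without dorsal knockdown 2) to 1.39 (without ventral knockdown 2). Without the 2 libraries of smallest no-gene share the difference was 0.48 (SE 0.57). The ventral groups also differed in tissue markers. Summed CA1 markers stood at 573 to 1131 CPM in ventral knockdown and 149.9 to 408 CPM in ventral control libraries. All 7 dentate granule markers were lower in ventral knockdown. The part of these tissues in the Glra2 levels was not tested.

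Glrb codes for the beta subunit, which anchors glycine receptors to gephyrin at synapses (chr3:80843599-80913660, minus strand). It ranged from 125 to 187 CPM in dorsal knockdown libraries and from 108 to 159 CPM in dorsal control libraries. Ventral libraries ranged from 129.6 to 202 CPM in knockdown libraries and from 112 to 299.7 CPM in control libraries. The highest value, in ventral control 1, was far from the 112 to 150.1 CPM of the other ventral controls, and all groups overlapped. Its log2 fold changes of knockdown over control were 0.087 (SE 0.31) in dorsal and -0.029 (SE 0.31) in ventral tissue. Glra3, an alpha subunit best known from inhibitory synapses of the spinal dorsal horn (chr8:55940460-56130070, plus strand), stood at 0.326 to 4.34 CPM over the 14 tested libraries. The 95% interval of its log2 fold change in dorsal tissue ran from -2.35 to 1.24, the widest range of the 10 genes there.

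Slc29a1 codes for the equilibrative nucleoside transporter ENT1 (chr17:45585200-45599606, minus strand), and its group means lay close together. They were 16.8 ± 3.66 CPM in dorsal knockdown, 17.4 ± 5.10 CPM in dorsal control, 17.3 ± 5.79 CPM in ventral knockdown and 18.5 ± 4.50 CPM in ventral control (SD, n = 4, 3, 3 and 4). The log2 fold change of knockdown over control was -0.028 (SE 0.30, 95% interval -0.66 to 0.61) in dorsal and -0.10 (SE 0.29, 95% interval -0.73 to 0.52) in ventral tissue. Differences smaller than these intervals could not be told from no difference with these libraries.

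Over the 10 genes, 0 were called at an adjusted p under 0.05 by edgeR in each of the 6 comparisons, as were 0% of all 14578 genes. DESeq2 called 11 genes in the dorsal and 35 in the ventral knockdown comparison, 4 for the mean of both regions, 13 between the regions of the control arm, 0 in the knockdown arm and 9 for the difference of the knockdown effects, none of them among the 10. At an unadjusted p under 0.05 by edgeR, 0 of the 10 passed for dorsal knockdown against dorsal control, where 4.58% of all genes did (667). For ventral knockdown against ventral control it was 1 of the 10 (Glra2), against 4.07% of all genes (593), and for the mean of both regions 0 of the 10, against 3.96% (577). For dorsal against ventral libraries it was 1 of the 10 in controls (Kcnj9), against 5.58% of all genes (813), and 0 of the 10 in knockdown, against 2.17% (317). For the difference of the knockdown effects it was 1 of the 10 (Kcnj9), against 4.61% (672). A single gene of 10 is a share near these, and nothing is read from it. In direction alone, 2 of the 10 were higher and 8 lower in dorsal knockdown than in dorsal control (median log2 fold change -0.096, and 0.027 over all tested genes). In ventral knockdown 5 were higher and 5 lower than in ventral control (median 0.018, and -0.012 over all tested genes).

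Groups did not overlap for 0 of the 10 genes in dorsal knockdown against dorsal control and for 0 in ventral knockdown against ventral control, while this held for 7.03% and 2.66% of all genes. It held for 0 of the 10 between dorsal and ventral knockdown libraries, against 1.74% of all genes. Between dorsal and ventral control libraries it held for 3 of the 10, Kcnma1, Kcnmb4 and Kcnj9, all higher in dorsal tissue, against 9.29% of all genes (1354). Without TMM scaling it held for 2 of the 10, Kcnma1 and Kcnmb4, and the share of all genes was not computed on that scale. Summed CPM of 6 CA1 markers ran in the same order, from 735 to 906 in dorsal control and from 149.9 to 408 in ventral control libraries, with all 6 detected in every library. In ventral knockdown libraries these markers summed to 573 to 1131 CPM, also above each ventral control, and in dorsal knockdown libraries to 433 to 725 CPM. Against dorsal controls the dorsal knockdown sums were all lower, with 2 of the 6 markers higher and 4 lower. In dorsal against ventral controls 5 of the 6 CA1 markers were higher and 1 lower. The split was also 5 higher and 1 lower in ventral knockdown against ventral control. Summed CPM of 7 neocortex markers, all detected in every library, also separated the control regions, from 279 to 378 in dorsal control and from 194 to 276 in ventral control libraries. Of these 7 markers 5 were higher and 2 lower in dorsal than in ventral controls. The neocortex sums were highest in total-hippocampus knockdown (398 CPM), dorsal knockdown 4 (382 CPM), dorsal control 2 (378 CPM) and ventral knockdown 4 (377 CPM), and in each of these Kcnj9 stood at 121 CPM or more. The next sum, 357 CPM in ventral knockdown 2, went with 95.1 CPM of Kcnj9. In dorsal control 3 a sum of 288 CPM went with 146 CPM of Kcnj9. Sums of 7 ventral hippocampus markers overlapped between control regions, from 248 to 919 CPM in dorsal and from 211 to 1040 CPM in ventral controls. Of these markers, 6 were lower and 1 higher in dorsal than in ventral controls. In the knockdown arm 6 were higher and 1 lower in dorsal tissue, with sums of 300 to 1047 CPM against 243 to 539 CPM. Of 6 general neuron markers, 5 were higher and 1 lower in dorsal than in ventral controls. Their sums overlapped, with 7322 to 10848 CPM in dorsal and 6567 to 9615 CPM in ventral controls. Ventral control 4, with 15687 CPM of choroid plexus markers, was the lowest ventral control for Kcnma1, Kcnmb4 and Kcnj9. It held 94.0, 28.7 and 34.1 CPM of them. With single libraries left out, the log2 fold change between control regions ran from 0.49 to 0.72 for Kcnma1. For Kcnmb4 it ran from 0.34 to 0.58 and for Kcnj9 from 0.88 to 1.36. The part of CA1, neocortex and choroid plexus tissue and of neuron content in the levels of Kcnma1, Kcnmb4 and Kcnj9 was not tested.

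**Figure D4:**
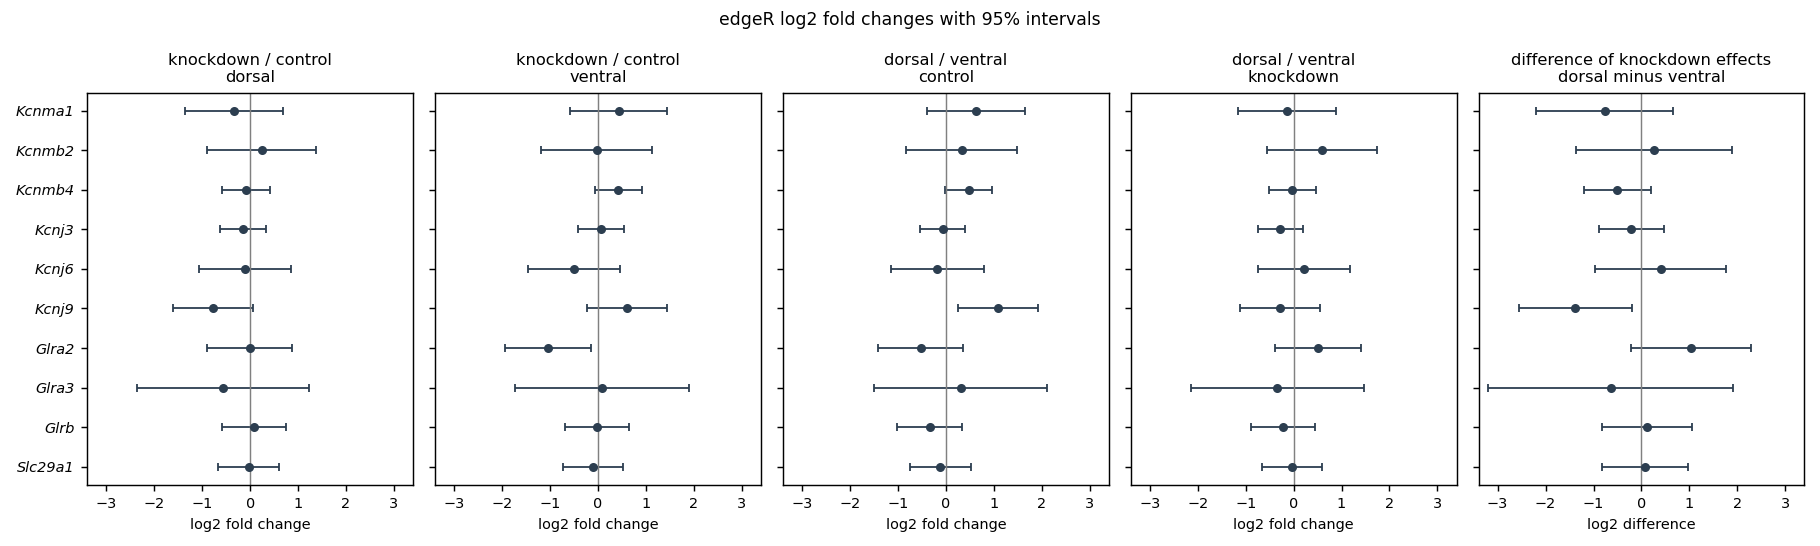
log2 fold changes by edgeR with 95% intervals (not adjusted over genes) for the 10 genes, in the 4 pairwise comparisons and for the difference of the knockdown effects. Intervals that exclude 0 are those of Glra2 in the ventral knockdown comparison, Kcnj9 between dorsal and ventral controls and Kcnj9 in the difference of effects, and none passed after adjustment.

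Ratios of subunits that assemble together were compared within each library, where the scaling of libraries drops out. The Glra2 to Glrb ratio was lower in ventral knockdown than in ventral control libraries. Its log2 values were -4.48, -5.33 and -4.61 in ventral knockdown, against -4.20, -3.70, -2.86 and -4.01 in ventral control libraries, so the groups did not overlap. The mean difference was -1.11 (exact two-sided permutation p = 0.0571, adjusted p = 1 over 24 tests, smallest possible p 0.0286). The Kcnj9 to Kcnj3 ratio had log2 values of -0.32, 0.33 and 0.13 in dorsal control, against -1.76, -0.58, -0.55 and -1.86 in ventral control libraries. These groups did not overlap either, with a mean difference of 1.24 (exact permutation p = 0.0857, adjusted p = 1). Both ratios are described because they had the smallest p of the 24 tests. A lack of overlap can arise by chance among so many comparisons of small groups, and nothing is read from it. The Kcnmb4 to Kcnma1 ratio was tight in controls, at -1.67 ± 0.14 in dorsal and -1.53 ± 0.15 in ventral libraries (log2, SD, n = 3 and 4). In knockdown libraries it was widely spread, from -2.47 to 0.0092 in dorsal and from -2.32 to 0.48 in ventral tissue, and the highest value of each region came from the library with the smallest share of reads in no gene. Of the 24 ratio tests 0 passed after adjustment, and with 3 libraries against 4 none could have reached an unadjusted p below 0.0286.

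**Figure D5:**
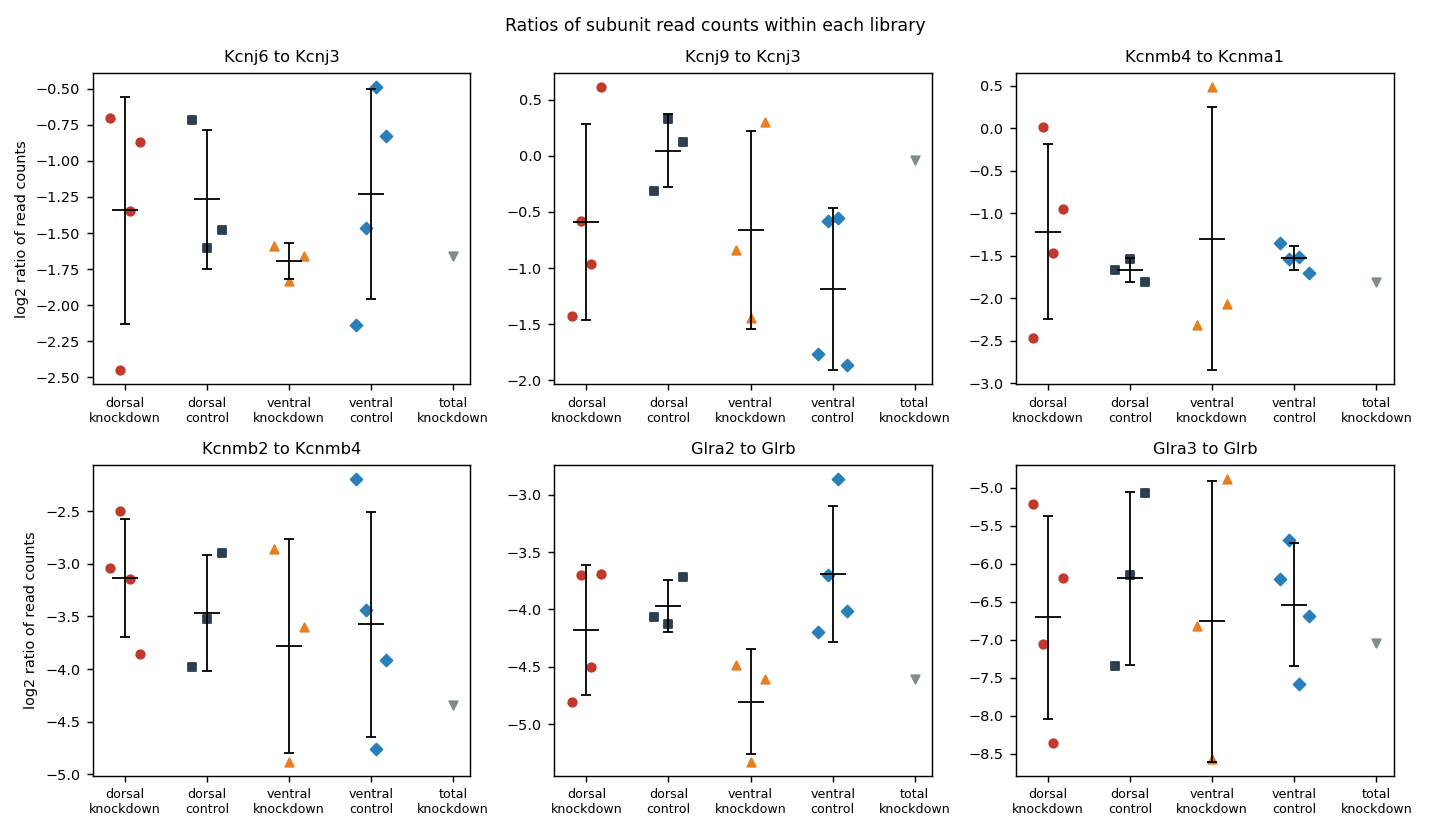
log2 ratio of the read counts of 2 subunit genes in each of 15 libraries by group, where points are libraries and bars are the mean ± SD. The Glra2 to Glrb ratio is lower in each ventral knockdown library than in each ventral control library, and the Kcnmb4 to Kcnma1 ratio spreads from -2.47 to 0.48 in knockdown libraries against -1.82 to -1.35 in control libraries. No ratio test passed after adjustment.

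Across the 15 libraries the 10 genes did not vary as a group. Over 45 pairs, Pearson's r of log2 CPM ran from -0.59 (Kcnj6 with Glrb) to 0.59 (Kcnma1 with Kcnj6), with a median of -0.058. The points share library quality, depth and tissue makeup, so these values are descriptions. The 11372 candidates (11373 for Kcnmb2 and Glra3) were tested genes averaging 5 CPM or more, with predicted and clone-named genes left out. Among them, those most like Kcnma1 were Akap6, a scaffold for protein kinase A (r = 0.96), the semaphorin receptor gene Plxna2 (0.95) and Ankrd17 (0.95). Kcnj6 was most like Frrs1l (0.94), an AMPA receptor biogenesis factor, Zbtb20 (0.93) and Plxna4 (0.93). Kcnj9 was most like Cspg5 (0.94), the voltage-gated potassium channel gene Kcnc4 (0.94) and Dennd6b (0.92). Glrb was most like Ublcp1 (0.97), the trafficking GTPase gene Rab1a (0.96) and Gid8 (0.96). Glra2 was most like Clk1, Cbfb and Drc1 (0.84 to 0.89), and Glra3 most like Sema3d, Kcnj16 and Gnl3l (0.86 to 0.87). Kcnmb2 was most like Pde1a, Rxrg and Gap43 (0.86 to 0.88), Kcnmb4 most like Tssc1, Zpr1 and Klc1 (0.81 to 0.84), Kcnj3 most like Dpp6, Cdh8 and Lrrn1 (0.76 to 0.86) and Slc29a1 most like Dgcr14, Slc27a3 and Cidea (0.76 to 0.81).

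Genes that work with these channels were examined as 5 lists of 55 genes in all, of which 45 were tested and 0 were called by edgeR in any of the 6 comparisons. At an unadjusted p under 0.05 by edgeR, 1 of the 45 passed in dorsal knockdown (4.58% of all genes) and 3 in ventral knockdown (4.07%). It was 3 for the mean of both (3.96%) and 3 between control regions (5.58%). Between knockdown regions it was 0 (2.17%), and for the difference of the effects 1 (4.61%). Nothing is read from these counts. Of 12 tested GIRK partners, such as the GABA-B receptor and the adenosine receptor Adora1, 3 were higher and 9 lower in dorsal knockdown (median log2 fold change -0.13, and 0.027 over all tested genes). In ventral knockdown 9 were higher and 3 lower (median 0.16, and -0.012 over all tested genes). In dorsal against ventral controls 8 were higher and 4 lower (median 0.16, and -0.065 over all tested genes). The 6 general neuron markers ran the same way. Of these, 2 were higher and 4 lower in dorsal knockdown (median -0.23), and 5 were higher and 1 lower in ventral knockdown (median 0.29). Between dorsal and ventral controls their median was 0.30. The part of neuron content in the values of the GIRK partners was not tested. The medians over all tested genes, 0.027 in dorsal and -0.012 in ventral knockdown, also stand beside the lists that follow. Of 13 tested genes of adenosine handling, 11 were higher and 2 lower in dorsal knockdown (median 0.29), and 10 were higher and 3 lower in ventral knockdown (median 0.18). Microglia markers moved with the adenosine list. In dorsal knockdown 7 of 7 were higher (median 0.82) and 0 were called by edgeR. At an unadjusted p under 0.05 by edgeR 4 of them passed, against 4.58% of all genes. In ventral knockdown 7 of 7 were higher (median 0.17), and 0 passed at an unadjusted p under 0.05, against 4.07% of all genes. Their summed CPM ran from 315 to 751 in dorsal knockdown, above 207 to 289 in dorsal control libraries, and from 281 to 343 in ventral knockdown, within the 194 to 412 of ventral control libraries. All 7 were detected in every library, and their part in the adenosine list was not tested. Of 7 tested BK and SLO family genes, 2 were higher and 5 lower in dorsal knockdown (median -0.17), and 5 were higher and 2 lower in ventral knockdown (median 0.32). Of 7 SK and Kv7 channel genes, 2 were higher and 5 lower both in dorsal (median -0.43) and in ventral knockdown (median -0.11), and of 7 glycine receptor partners 4 were higher and 3 lower in each region (medians 0.0053 and 0.036).

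The related genes with the smallest p were named by rule. Slc6a5, the neuronal glycine transporter that fills glycinergic terminals, stood at 1.14, 1.55, 3.91 and 1.73 CPM in dorsal knockdown libraries, against 0.443, 0 and 0 CPM in dorsal control libraries (unadjusted p = 0.0187, adjusted p = 0.955 by edgeR). Ventral levels were 2.83, 0 and 7.96 CPM in knockdown libraries, against 0, 2.29, 0.107 and 0 CPM in control libraries, so the groups overlapped there. For the mean of both regions it had the smallest p of the related genes (unadjusted p = 0.00368, adjusted p = 1.00 by edgeR), followed by Kcnmb1, the BK beta subunit of smooth muscle, with a log2 fold change of -1.12 (SE 0.44), and the SK channel gene Kcnn3 with -0.54 (SE 0.24). In dorsal knockdown against dorsal control, Lrrc38, a BK gamma subunit gene, had -1.54 (SE 0.76) and the nucleoside transporter gene Slc29a2 had -0.52 (SE 0.26). In ventral knockdown against ventral control, the sodium-activated potassium channel gene Kcnt2 had -0.59 (SE 0.25) and Kcnmb1 had -1.56 (SE 0.63). Kcnmb1 stood at 1.23, 0.937 and 0.517 CPM in ventral knockdown libraries, against 1.26, 1.78, 1.28 and 6.01 CPM in ventral control libraries. The highest value was that of ventral control 4, the library with 15687 CPM of choroid plexus markers, and the other ventral controls lay close to the knockdown libraries.

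Between the regions of the control arm, the calcium-activated SK channel gene Kcnn1 stood at 27.9, 22.5 and 20.5 CPM in dorsal control libraries, against 10.5, 13.2, 15.5 and 12.3 CPM in ventral control libraries. It gave a log2 fold change of 0.86 (SE 0.22, unadjusted p = 0.00173, adjusted p = 0.731 by edgeR), and the groups did not overlap. Lingo1, a membrane protein that binds BK channels, had 0.87 (SE 0.35). Between the regions of the knockdown arm, Lingo1 had 0.73 (SE 0.35), the BK gamma subunit gene Lrrc55 had -1.003 (SE 0.50) and Rgs7bp, which anchors a regulator of G protein signalling, had -0.51 (SE 0.29). In the difference of the knockdown effects Kcnn1 had -0.80 (SE 0.31), Slc29a2 had -0.72 (SE 0.36) and the monoamine and nucleoside transporter gene Slc29a4 had 1.68 (SE 0.88), and no gene passed. Slc29a4 stood at 79.0 and 80.5 CPM in ventral controls 3 and 4, which had the most choroid plexus markers (642 and 15687 CPM), and at 14.8 and 22.4 CPM in ventral controls 1 and 2. Its levels in the other 10 tested libraries ran from 5.69 to 37.2 CPM, and the part of choroid plexus in the values of Kcnmb1 and Slc29a4 was not tested.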

How the data were processed

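Gene reads were deposited by the authors as raw counts for 24498 genes and 5 summary lines in 21 libraries. The submitters' processing notes name STAR 2.5.2a, HTSeq 0.6.1p1 and the build mm10, while the annotation and strand setting are not given in the sources used here. Per the labels' protocols a directional kit was used. The 5 summary lines stayed out of all library totals and gave only the share of reads in no gene. The number of sample columns left unused was 0.

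The 14 dorsal and ventral ethanol libraries with over 1000000 gene reads were tested by quasi-likelihood with edgeR 4.0.16 under R 4.3.3 (filterByExpr with a minimum count of 10, TMM, robust fit, 4 group means), tested on simulated data. The share of changed genes recovered in the simulated data is not reported here, so the power at the fold changes above is not given. P-values were adjusted by Benjamini-Hochberg over 14578 genes, and a gene was called under 0.05. RPKM used merged exons of GENCODE M21, where 23607 of the symbols matched. Promoters came from a RefSeq table. Ratios had a prior count of 0.5 and exact permutation tests over 35 splits. Replicate numbers were not used as pairs in the main fit. Deviations of same-numbered libraries had r of -0.22 to 0.37 over 18 pairs, with a median of 0.0048. Libraries of other numbers had r of -0.45 to 0.60 over 55 pairs, with a median of 0.00042. This cannot exclude pairing, because the same-numbered pairs also set knockdown against control libraries. The genes and lists were chosen with earlier results of these data known. All members were named, and by rule 3 related genes of smallest p per comparison and 3 most similar genes per member, of which 1 related gene is not reported here. Alternatives were RLE scaling, no filter, the replicate block, DESeq2 1.42.0, other sets of libraries, and leaving out each library.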

Additional observations from a re-analysis of the deposited data

Results flagged for a closer look

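Reads of these genes were also present in libraries outside the comparisons, above the 3 reads that a count of 0 allows. The untreated dorsal libraries had few reads in genes, 0.991% to 1.43% of those uniquely aligned, so no level was compared with the ethanol libraries. Kcnma1 had 9 reads in untreated dorsal knockdown 1, and 5 and 38 reads in untreated dorsal controls 1 and 2. Kcnmb4 had 4 reads in untreated dorsal knockdown 1, and 4 and 10 reads in those controls. Kcnj3 had 28 reads in untreated dorsal knockdown 1, 34 and 90 reads in those controls, and 4 reads in the shallow ethanol library dorsal knockdown 5. Kcnj6 had 12 reads in untreated dorsal knockdown 1, and 12 and 27 reads in those controls. Kcnj9 had 6 and 7 reads in untreated dorsal controls 1 and 2, and Glrb had 9 reads in control 2. Untreated dorsal controls 1 and 2 held 115467 and 221847 gene reads and untreated dorsal knockdown 1 held 93311. The groups of 4 libraries were examined for single values far from the rest by Dixon's test, and 0 of 20 passed, where chance gives about 1 in 20.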

How the results depend on the processing

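None of the 10 genes was called under any alternative: RLE scaling, DESeq2, testing without the low-count filter, the replicate block, only the groups compared, all 16 ethanol libraries, 20 libraries in 6 groups, each library left out, or the 2 libraries with the smallest share of reads in no gene left out. Adjusted p over these ran from 0.382 to 1.00 by edgeR or DESeq2, and the smallest was that of Kcnma1 in ventral tissue without those 2 libraries. No member's log2 value changed sign with RLE scaling, without the filter, with DESeq2 or with only the groups compared. The replicate block called 0 genes, and the sign turned for 7 log2 values, which became Slc29a1 0.029 for dorsal knockdown over control, Kcnmb2 0.27, Glrb 0.078 for ventral knockdown over control, Kcnj3 0.030 for the mean knockdown effect of both regions, Kcnj6 -0.092, Slc29a1 0.011 for dorsal over ventral knockdown, Kcnmb2 -0.066 for the difference of the knockdown effects. With all 16 ethanol libraries it turned for Kcnma1 -0.011 for the mean knockdown effect of both regions, and with 20 libraries for Kcnj3 -0.0017 for ventral knockdown over control, Kcnma1 -0.027, Glrb -0.0096 for the mean knockdown effect of both regions. Without those 2 libraries, chosen after seeing the data, it turned for Kcnmb2 -0.018, Kcnj6 0.18, Glrb -0.053 for dorsal knockdown over control, Kcnmb2 0.27 for ventral knockdown over control, Kcnj9 0.097, Glra3 0.065, Glrb -0.051 for the mean knockdown effect of both regions. It also turned for Kcnmb4 0.22, Glra2 -0.043, Slc29a1 0.13 for dorsal over ventral knockdown, Kcnmb2 -0.29, Glrb -0.0040 for the difference of the knockdown effects. The number of all genes called, 0, became 11 and 35 with DESeq2 in the dorsal and ventral knockdown comparisons, 4 for their mean, 13 between control regions and 9 for the difference of the effects. It became 1 in the ventral knockdown comparison with all 16 ethanol libraries, with 20 libraries and without those 2 libraries, 1 between control regions without those 2 libraries, and 1 (20 libraries) and 3 (without those 2) for the difference of the effects. With single libraries left out it ran from 0 to 8 in ventral knockdown (8 without ventral control 1), 0 to 6 between control regions, 0 to 2 for the mean and 0 to 2 for the difference. Log2 values that turned when single libraries were left out ran, for dorsal knockdown over control, from -0.014 to 0.47 (Kcnmb2), from -0.26 to 0.056 (Kcnmb4), from -0.55 to 0.22 (Kcnj6), from -0.35 to 0.20 (Glra2), from -1.10 to 0.17 (Glra3), from -0.052 to 0.21 (Glrb), from -0.25 to 0.17 (Slc29a1). For ventral knockdown over control, they ran from -0.37 to 0.77 (Kcnmb2), from -0.10 to 0.19 (Kcnj3), from -0.94 to 0.63 (Glra3), from -0.19 to 0.37 (Glrb), from -0.40 to 0.084 (Slc29a1). For the mean knockdown effect of both regions, they ran from -0.20 to 0.27 (Kcnma1), from -0.061 to 0.51 (Kcnmb2), from -0.12 to 0.028 (Kcnj3), from -0.29 to 0.076 (Kcnj9), from -0.74 to 0.13 (Glra3), from -0.052 to 0.23 (Glrb), from -0.21 to 0.038 (Slc29a1). For dorsal over ventral controls, they ran from -0.14 to 0.011 (Kcnj3), from -0.50 to 0.15 (Kcnj6), from -0.41 to 0.86 (Glra3), from -0.50 to 0.059 (Glrb), from -0.31 to 0.10 (Slc29a1). For dorsal over ventral knockdown, they ran from -0.64 to 0.15 (Kcnma1), from -0.20 to 0.20 (Kcnmb4), from -0.22 to 0.49 (Kcnj6), from -0.61 to 0.12 (Kcnj9), from -0.88 to 0.70 (Glra3), from -0.22 to 0.26 (Slc29a1). For the difference of the knockdown effects, they ran from -0.52 to 0.62 (Kcnmb2), from -0.045 to 0.72 (Kcnj6), from -1.20 to 0.39 (Glra3), from -0.28 to 0.28 (Glrb), from -0.14 to 0.38 (Slc29a1). The log2 ratio differences for dorsal knockdown over control ran from -0.29 to 0.29 (Kcnj6 to Kcnj3), from -0.37 to 0.0044 (Glra2 to Glrb), from -1.09 to 0.046 (Glra3 to Glrb). The log2 ratio differences for ventral knockdown over control ran from -0.66 to 0.73 (Kcnmb4 to Kcnma1), from -0.66 to 0.34 (Kcnmb2 to Kcnmb4), from -1.16 to 0.68 (Glra3 to Glrb). The log2 ratio differences for dorsal over ventral controls ran from -0.34 to 0.21 (Kcnj6 to Kcnj3), from -0.28 to 0.57 (Kcnmb2 to Kcnmb4), from -0.21 to 0.92 (Glra3 to Glrb). The log2 ratio differences for dorsal over ventral knockdown ran from -0.33 to 0.55 (Kcnj9 to Kcnj3), from -0.42 to 0.97 (Kcnmb4 to Kcnma1), from -0.85 to 0.99 (Glra3 to Glrb). The causes of these turns were not tested, and all were in values that passed no test. Depth limits Glra3, Kcnmb2 and Glra2, with down to 1, 8 and 14 reads in a library.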
